A study of Homo sapiens with 6 samples.

Results

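The 10 genes described here encode the eIF4F cap-binding complex, the factors that bind it and close relatives of its subunits: EIF4E, EIF4E2, EIF4G1, EIF4G2, EIF4A1, EIF4A2, EIF4A3, EIF4B, EIF4EBP1 and PDCD4. They were taken by symbol from a table of 27605 genes, of which 12291 had a mean of at least 0.5 FPKM (fragments per kilobase of exon, scaled to the mapped fragments of each library) over the libraries and were tested. All 10 genes passed that filter. They were chosen with the opposite differences of EIF4A1 and its readthrough gene in these same libraries already known. The differences of the 10 genes between the groups are therefore a description and carry no test.

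The RNA came from cells labelled HepG2, a human liver cancer line, that were grown in serum-containing DMEM. The control group, shNC, carried a control hairpin and a genotype given as WT (3 libraries). In the other group, shARHGEF2, lentivirus was used to knock down ARHGEF2, which encodes a guanine nucleotide exchange factor for RHOA (3 libraries). Neither the labels nor the methods state how many hairpins were used, whether the 3 libraries of a group came from separate cultures, or whether a clone was picked, so every spread and p-value refers to these libraries and may be technical.

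Most cellular mRNAs carry a methylated cap at the 5′ end, and eIF4F is the complex that recognises it. Its cap-binding subunit eIF4E is joined through the scaffold eIF4G to the RNA helicase eIF4A, which unwinds the leader so that the small ribosomal subunit can load and scan. The 4E-BP proteins compete with eIF4G for eIF4E until mTORC1 phosphorylates them, and PDCD4 holds eIF4A away from the complex.

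Of the 10 genes, 6 carried the eIF4F complex term in the annotation columns of the table (EIF4A1, EIF4A2, EIF4B, EIF4E, EIF4E2 and EIF4G1) and 7 carried translational initiation. RNA binding was assigned to 9, with EIF4EBP1 the exception. The KEGG term mTOR signaling pathway was assigned to 4, namely EIF4B, EIF4E, EIF4E2 and EIF4EBP1. Positions below are those of GENCODE 29 on GRCh38, matched by gene identifier. The submitters' processing notes name hg19, so the positions locate the genes and were not read from the deposited table.

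EIF4A1 lies on chromosome 17 from 7572706 to 7579005, on the plus strand, directly downstream of SENP3, which encodes a SUMO protease and ends at 7571969. A further gene record, SENP3-EIF4A1, spans both from 7563287 to 7578715. It holds 1 transcript of 3519 nt and 21 exons, annotated as a target of nonsense-mediated decay. The first 10 exons are SENP3 sequence, and exon 11 runs from 7572284 to 7572864 and takes in the first exon of EIF4A1. Of its 20 introns, 9 are also introns of listed SENP3 transcripts and 10 of listed EIF4A1 transcripts. The single remaining intron joins the genes. Among the listed transcripts, only a read across this junction, or within 540 nt of exon 11, is particular to the readthrough record. Those 540 nt belong to no listed transcript of either gene, though the EIF4A1 gene of GENCODE 29 starts within them, at 7572706. The first sequence below is that junction, with 15 bases of exon 10 in lower case and the first 15 bases of exon 11 in capitals, and the second is the start of EIF4A1, with the bases from its start site (7572825) on in capitals. The start window covers chr17:7572810-7572839 and therefore lies inside exon 11 of the readthrough transcript.
SENP3-EIF4A1 junction (GENCODE 29, GRCh38, plus strand, 7571479 joined to 7572284): ctgcaaactcactgtCCAGGGGAATCCTCC
EIF4A1 start (RefSeq, GRCh38.p14, plus strand): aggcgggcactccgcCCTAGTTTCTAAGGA

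By length, 1511 bases of the readthrough transcript (42.9%) fall in exons of listed SENP3 transcripts, 1468 bases (41.7%) in exons of listed EIF4A1 transcripts and 540 bases (15.3%) in neither. The listed EIF4A1 transcripts number 31, of which 10 are protein coding, 15 retain an intron and 5 are annotated as decay targets, and 18 of them start within 20 nt of 7572824. The map of the locus shows how few bases tell the readthrough record from its neighbours.

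**Figure D1:**
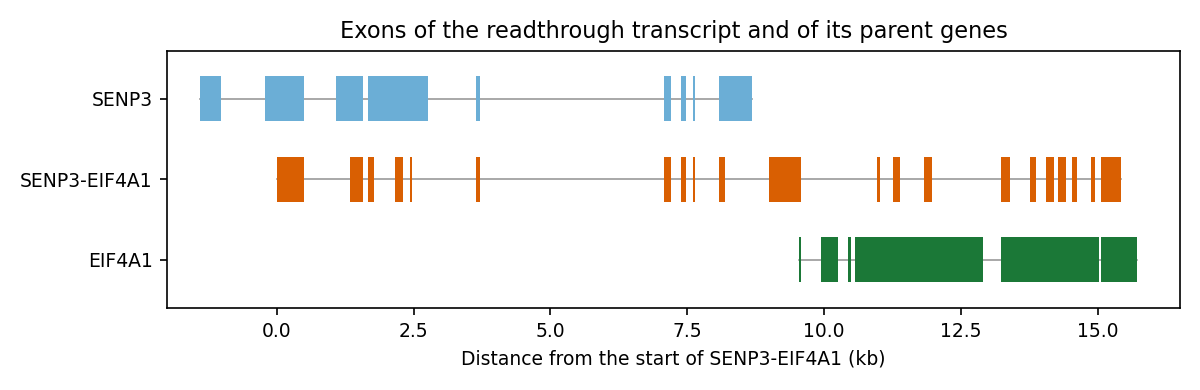
Exons of the listed transcripts of SENP3, SENP3-EIF4A1 and EIF4A1, drawn to scale against the distance in kb from the start of SENP3-EIF4A1 on chromosome 17 (GENCODE 29). The 540 nt of the readthrough transcript found in no listed transcript of either gene lie directly upstream of the first base of the listed EIF4A1 transcripts.

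The libraries were estimated to hold 20220000 to 23390000 read pairs each, from the spacing of low FPKM values, and ARHGEF2 checked the labels. It stood at 13.0, 14.4 and 13.9 FPKM in the shNC libraries and at 4.25, 4.004 and 4.82 FPKM in the shARHGEF2 libraries, a log2 difference of -1.47 ± 0.11 (standard error, adjusted p = 0.00244 in limma). This and every standard error below is limma's moderated one, which draws a gene's variance toward that of genes of like level. The markers of the labelled liver cell type were nearly absent. Of 14 hepatocyte markers, 9 were in the table and 0 reached a mean of 0.5 FPKM, with AFP at 0 to 0.0703 FPKM, HNF4A at 0.0456 to 0.0956 FPKM and a summed level of 0.414 to 0.726 FPKM in shNC and 0.460 to 1.03 FPKM in shARHGEF2. ALB, APOH, FGB, TTR and AHSG were not analysed here. The epithelial keratins KRT8, KRT18 and KRT19 were abundant, EPCAM stayed at or below 0.0547 FPKM, and the 4 epithelial markers summed to 354 to 458 FPKM in shNC and 335 to 419 FPKM in shARHGEF2. Leukocyte markers did not exceed 0.0737 FPKM and endothelial markers 0.854 FPKM (PECAM1), while fibroblast markers summed to 10.7 to 12.4 FPKM in shNC and 13.8 to 14.5 FPKM in shARHGEF2. The identity of the cells is taken from the labels and was not tested. Nor was the part of the marker levels in the differences below. Less RNA per cell and fewer cells of a kind cannot be told apart in bulk libraries.

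EIF4A1 showed the widest separation between the groups among the 10 genes, and the readthrough record moved the other way. EIF4A1, the abundant helicase subunit of eIF4F, measured 70.0, 77.2 and 83.4 FPKM in the shNC libraries and 55.7, 50.8 and 50.4 FPKM in the shARHGEF2 libraries. Every shARHGEF2 library lay under every shNC library. The means were 76.8 ± 6.69 and 52.3 ± 2.95 FPKM (SD, n = 3 each), a ratio of 0.681 and a log2 difference of -0.54 ± 0.10 (standard error) on the log2(FPKM + 1) scale used for every log2 value here.

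SENP3-EIF4A1 measured 2.77, 2.53 and 1.83 FPKM in shNC and 21.3, 36.1 and 43.9 FPKM in shARHGEF2, or 2.37 ± 0.489 and 33.7 ± 11.5 FPKM (SD, n = 3 each). The lowest shARHGEF2 library stood well above the highest shNC library, and the shARHGEF2 libraries also spread widely among themselves. The ratio of the means was 14.2 and the log2 difference 3.32 ± 0.25. At the estimated depth, 130 to 225 read pairs were assigned to the record in each shNC library and 1531 to 3610 in each shARHGEF2 library. SENP3 itself measured 65.4, 59.6 and 65.3 FPKM in shNC and 56.2, 56.2 and 58.1 FPKM in shARHGEF2, without overlap and with a log2 difference of -0.15 ± 0.08.

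The other neighbours did not separate the groups. TNFSF12 and TNFSF13, ligands of the TNF superfamily upstream of SENP3, had log2 differences of -0.04 each. CD68, a lysosomal membrane protein, and MPDU1, which takes part in the use of dolichol-linked mannose, lie downstream of EIF4A1 and had log2 differences of 0.05 and 0.07. All 4 overlapped between the groups.

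FPKM divides by length, so levels of overlapping records cannot simply be added. The lengths behind the deposited values were recovered by searching for the whole number that, multiplied by a gene's value in each library, gives a product with no more than 6 decimals. Such a length was found for 9194 of 9241 genes with several transcripts (99.5%), and 78.9% of those lay within 10% of the gene's summed exon length in GENCODE 29. For EIF4A1 the length was 5199 nt, far longer than its 1756 nt principal transcript because retained introns count as exon, and for SENP3 it was 3624 nt. FPKM times this length in kilobases gives FPM, the depth-scaled number of fragments before division by length. For SENP3-EIF4A1, with a single transcript, the search gave no usable length, and its annotated 3519 nt was used. Whether its values were divided by that length was not tested. For EIF4EBP1, also with 1 listed transcript, the recovered 880 nt was shorter than the annotated 1020 nt. The FPM scale was chosen after the data were seen, and on it records can be summed.

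On that scale EIF4A1 had 364, 401 and 433 FPM in shNC and 289.7, 264 and 262 in shARHGEF2, a difference of the means of -127. SENP3-EIF4A1 had 9.73, 8.89 and 6.42 in shNC and 75.0, 127 and 154 in shARHGEF2, a difference of 110.4. SENP3 differed by -23.9 FPM, from 229.9 ± 11.99 to 206 ± 3.97 (SD, n = 3 each). The readthrough record was thus higher by less than EIF4A1 and SENP3 together were lower.

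Summed over EIF4A1 and SENP3-EIF4A1, the libraries held 408 ± 33.2 FPM in shNC and 391 ± 25.9 in shARHGEF2 (SD, n = 3 each), a difference of -17.1 that is smaller than either SD and ranged from -34.2 (without shNC replicate 1) to -1.07 (without shNC replicate 3). Summed over all 3 records the values were 638 ± 34.5 and 597 ± 29.4, a difference of -41.0 that ranged from -56.1 (without shARHGEF2 replicate 3) to -21.6 (without shNC replicate 3). The readthrough record took 2.604%, 2.17% and 1.46% of the fragments of the EIF4A1 pair in shNC and 20.6%, 32.4% and 37.1% in shARHGEF2. The 6 shares fell into ranges far apart, and leaving out any library kept the difference of the mean shares between 24.4 and 32.7 percentage points.

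A part of the readthrough fragments would lie in SENP3 exons, and the deposited values do not say where. If the fragments of the readthrough transcript were spread evenly over its length, the exons of EIF4A1 would hold 403 ± 34.1 FPM in shNC and 322 ± 4.68 in shARHGEF2, and those of SENP3 233 ± 11.8 and 257 ± 20.5 (SD, n = 3 each). Under even coverage the EIF4A1 exons were therefore still lower in shARHGEF2, with a difference of -81.4 FPM. If all fragments lay in EIF4A1 exons instead, the difference would be the -17.1 given above. Whether the fragments crossed the junction was not tested, since the values are per gene. The plot of FPM gives the 3 records library by library.

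**Figure D2:**
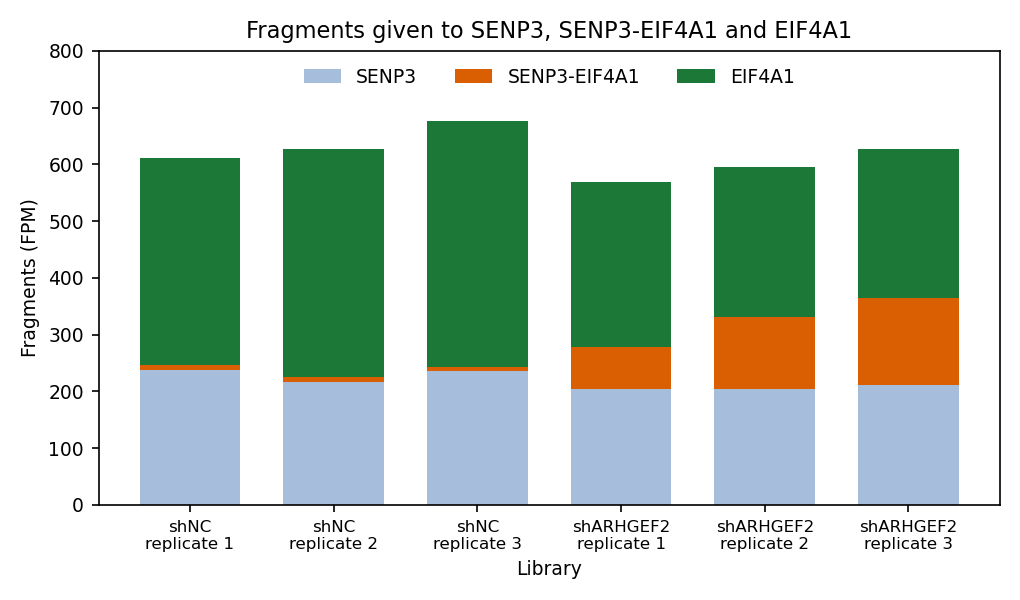
Fragments in FPM (FPKM times length in kilobases, recovered for SENP3 and EIF4A1 and annotated for SENP3-EIF4A1) assigned to SENP3, SENP3-EIF4A1 and EIF4A1, stacked in 1 bar for each of the 6 libraries. SENP3-EIF4A1 holds 6.42 to 9.73 in the shNC libraries and 75.0 to 154 in the shARHGEF2 libraries, while EIF4A1 holds 364 to 433 and 262 to 289.7.

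The related helicase genes had higher means in shARHGEF2, by differences within or about limma's standard errors. EIF4A2, the close paralog of EIF4A1 (chromosome 3, 186783205 to 186789900), measured 7.65, 11.1 and 14.6 FPKM in shNC and 10.5, 18.6 and 12.2 FPKM in shARHGEF2. The groups overlapped, and the log2 difference of 0.28 ± 0.27 was about its standard error, moving between 0.06 (without shARHGEF2 replicate 2 or shNC replicate 1) and 0.49 (without shNC replicate 3). EIF4A1 made up 88.6%, 85.5% and 82.9% of the EIF4A1 plus EIF4A2 fragments in shNC and 81.9%, 69.9% and 77.8% in shARHGEF2. These shares counted 1 record of each gene and left the readthrough out. With the readthrough added, the fragments of EIF4A1 overlapped between the groups. They were 374, 410 and 440 FPM in shNC and 365, 391 and 417 in shARHGEF2. The share of EIF4A1 was not computed from that sum.

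EIF4A3 is a related helicase of the exon junction complex, which marks spliced mRNA, and not a subunit of eIF4F (chromosome 17, 80135214 to 80147183). It measured 22.2, 22.2 and 21.1 FPKM in shNC and 23.1, 23.9 and 22.4 FPKM in shARHGEF2. The groups did not overlap, but they stood close together, with a log2 difference of 0.08 ± 0.09. That error is limma's, and the within-group SD of EIF4A3 itself was 0.042 on the log2 scale. EIF4B, the cofactor that stimulates eIF4A (chromosome 12, 53006158 to 53042209), measured 26.7, 34.9 and 37.2 FPKM in shNC and 28.6, 35.1 and 33.8 FPKM in shARHGEF2. Its means were 32.9 ± 5.498 and 32.5 ± 3.45 FPKM and its log2 difference -0.01 ± 0.14.

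The cap-binding genes overlapped between the groups. EIF4E, which binds the cap within eIF4F (chromosome 4, 98871684 to 98930637), was the lowest of the 10 genes, at 0.829, 1.00 and 0.593 FPKM in shNC and 0.562, 1.07 and 0.753 FPKM in shARHGEF2. At the estimated depth these values stand for 161 to 332 read pairs, spread over a recovered length of 14067 nt. The log2 difference was -0.01 ± 0.14. EIF4E2, a cap-binding homolog that represses the translation of bound mRNAs (chromosome 2, 232550052 to 232583644), measured 14.5, 13.9 and 12.2 FPKM in shNC and 13.5, 12.9 and 12.7 FPKM in shARHGEF2. All shARHGEF2 values lay inside the shNC range, and the log2 difference was -0.05 ± 0.10.

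The scaffolds were lower in shARHGEF2 by less than EIF4A1 was. EIF4G1, the main scaffold of eIF4F (chromosome 3, 184314495 to 184335358), measured 47.8, 54.4 and 48.2 FPKM in shNC and 47.4, 43.7 and 47.4 FPKM in shARHGEF2. The groups did not overlap, but the gap between the nearest libraries was narrow, and the log2 difference was -0.12 ± 0.09. EIF4G2, a relative that lacks the eIF4E-binding region and serves cap-independent initiation (chromosome 11, 10797050 to 10809110), measured 16.96, 21.5 and 18.5 FPKM in shNC and 11.5, 17.7 and 16.8 FPKM in shARHGEF2. These overlapped, with a log2 difference of -0.31 ± 0.16, and the lowest library was shARHGEF2 replicate 1, without which the difference was -0.13.

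The inhibitors differed in level and in sign. EIF4EBP1 on chromosome 8, which encodes the mTORC1-regulated inhibitor of eIF4E, measured 222, 197 and 211 FPKM in shNC and 200.5, 185 and 200.5 FPKM in shARHGEF2. The groups overlapped, at 210.1 ± 12.6 and 195 ± 9.13 FPKM and a log2 difference of -0.11 ± 0.08. PDCD4, which encodes the inhibitor of eIF4A (chromosome 10, 110871795 to 110900006), measured 2.57, 3.07 and 2.56 FPKM in shNC and 2.75, 4.21 and 3.38 FPKM in shARHGEF2. Its groups overlapped too, with a log2 difference of 0.24 ± 0.15 that was 0.12 without shARHGEF2 replicate 2.

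Of the 10 genes, 7 were lower and 3 higher in shARHGEF2, with a median log2 difference of -0.03 beside -0.0016 over all 12291 genes tested. None (0 of 10) was called at an adjusted p under 0.05 in limma, where 0.277% of all genes tested were, and 1 of 10 had an unadjusted p under 0.05, beside 13.7% of all genes tested. The groups did not overlap for 3 of 10 (EIF4A1, EIF4A3 and EIF4G1), beside 20.5% of all genes tested. Since the genes were chosen on this contrast, nothing is read from these counts. The plot of FPKM by library sets the 10 genes side by side.

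**Figure D3:**
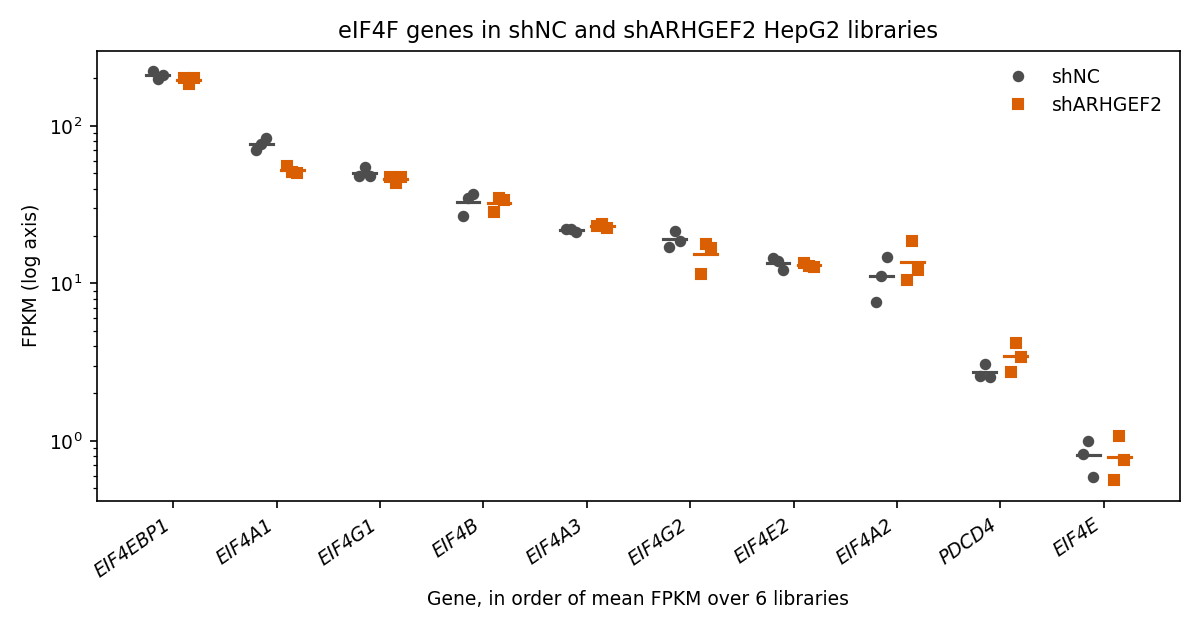
FPKM on a log axis of the 10 genes in the 3 shNC and 3 shARHGEF2 libraries, 1 point per library. EIF4A1 lies at 70.0 to 83.4 in shNC and at 50.4 to 55.7 in shARHGEF2, while 7 genes overlap between the groups.

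Within each library the 10 genes covered a wide range. By mean FPKM over the 6 libraries the order was EIF4EBP1 (203), EIF4A1 (64.6), EIF4G1 (48.1), EIF4B (32.7), EIF4A3 (22.5), EIF4G2 (17.1), EIF4E2 (13.3), EIF4A2 (12.4), PDCD4 (3.09) and EIF4E (0.801). The ranges of neighbours overlapped for EIF4A1 and EIF4G1, EIF4A3 and EIF4G2, EIF4G2 and EIF4E2, and EIF4E2 and EIF4A2. Of these pairs, EIF4A1 and EIF4A3 led their neighbour in 6 of 6 libraries, EIF4G2 in 5 and EIF4E2 in 4.

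The order depended on the length used. With fragments divided by the length of the principal transcript, a choice made after the data were seen, EIF4A1 (191) and EIF4EBP1 (175 FPM per kilobase) led the order. EIF4A1 stood above EIF4EBP1 in all 3 shNC libraries (207 to 247 beside 170.2 to 192) and below it in all 3 shARHGEF2 libraries (149 to 165 beside 159 to 173). The order in shNC replicate 1 rests on the 1020 nt annotated for EIF4EBP1, whose recovered length was 880 nt. At 880 nt EIF4EBP1 stood at 222 in that library, above EIF4A1 at 207. EIF4A3 (80.4) then stood above EIF4G1 (76.4) in 4 of 6 libraries, and EIF4E2 (54.3) above EIF4B (47.5) in 5. PDCD4 (3.90) and EIF4E (0.978) stayed lowest on both scales. EIF4E was thus low next to its inhibitor EIF4EBP1 and its scaffold EIF4G1 on either scale. Both scales divided its fragments by a long length, 14067 and 11523 nt, so its level over a shorter transcript is not known. Before division by length its mean was 11.3 FPM, beside 14.1 for PDCD4, 178 for EIF4EBP1 and 421 for EIF4G1.

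Several of the genes have processed copies elsewhere in the genome, with which reads can be shared. The table held 18 such copies, of which 6 were tested and the other 12 did not exceed 0.304 FPKM in any library. EIF4A1P10, on chromosome X, measured 18.6 ± 1.96 FPKM in shNC and 18.2 ± 2.13 FPKM in shARHGEF2 (SD, n = 3 each), with 4.99% to 9.10% as many fragments as EIF4A1. EIF4EP2, on chromosome 17, measured 2.90 ± 0.385 and 3.04 ± 0.459 FPKM, above EIF4E per kilobase, and had 14.6% to 21.2% as many fragments as EIF4E. How many reads a copy and its parent shared was not examined, so these shares do not bound the uncertainty of EIF4A1 and EIF4E. EIF4BP3 was the only tested copy whose groups did not overlap, at 0.909 ± 0.152 and 1.25 ± 0.0737 FPKM.

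The 10 genes also differed in how far the libraries of a group stood apart. EIF4A2 had a within-group SD larger than that of 95.3% of the genes tested, and EIF4G2 of 81.8%. EIF4A3 (1.39%), EIF4EBP1 (10.2%), EIF4G1 (13.9%), EIF4E2 (14.9%) and EIF4A1 (22.1%) were among the steadier genes. EIF4B, EIF4E and PDCD4 lay between, at 63.0% to 69.8%.

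This spread moved with base composition. The genes under 48% GC (a split chosen after the data were seen) were EIF4E, PDCD4, EIF4A2, EIF4G2 and EIF4B, at 39.0% to 46.4% of the principal transcript, and they are the 5 with the larger within-group SD. Their median deviation from the mean over all libraries was -0.18, 0.10 and 0.13 on the log2 scale in shNC replicates 1 to 3 and -0.18, 0.21 and 0.02 in shARHGEF2 replicates 1 to 3. The other 5 genes had medians of 0.12, 0.06 and 0.00 in shNC and -0.01, -0.13 and -0.02 in shARHGEF2.

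By their medians the AT-rich genes thus stood low in replicate 1 of both groups and high in replicate 2 of both. The same libraries showed the trend over 12231 genes. The Spearman correlation of deviation and GC content was 0.21, -0.46 and 0.13 in shNC and 0.57, -0.30 and -0.03 in shARHGEF2. In shNC replicate 3 the members went the other way. Their AT-rich genes had a median deviation of 0.13 there, although the correlation over all genes was positive. The part of base composition in the differences of single genes was not tested. EIF4A1 had 49.6% GC and its readthrough record 54.8%, beside a median of 51.3% over the genes tested.

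**Figure D4:**
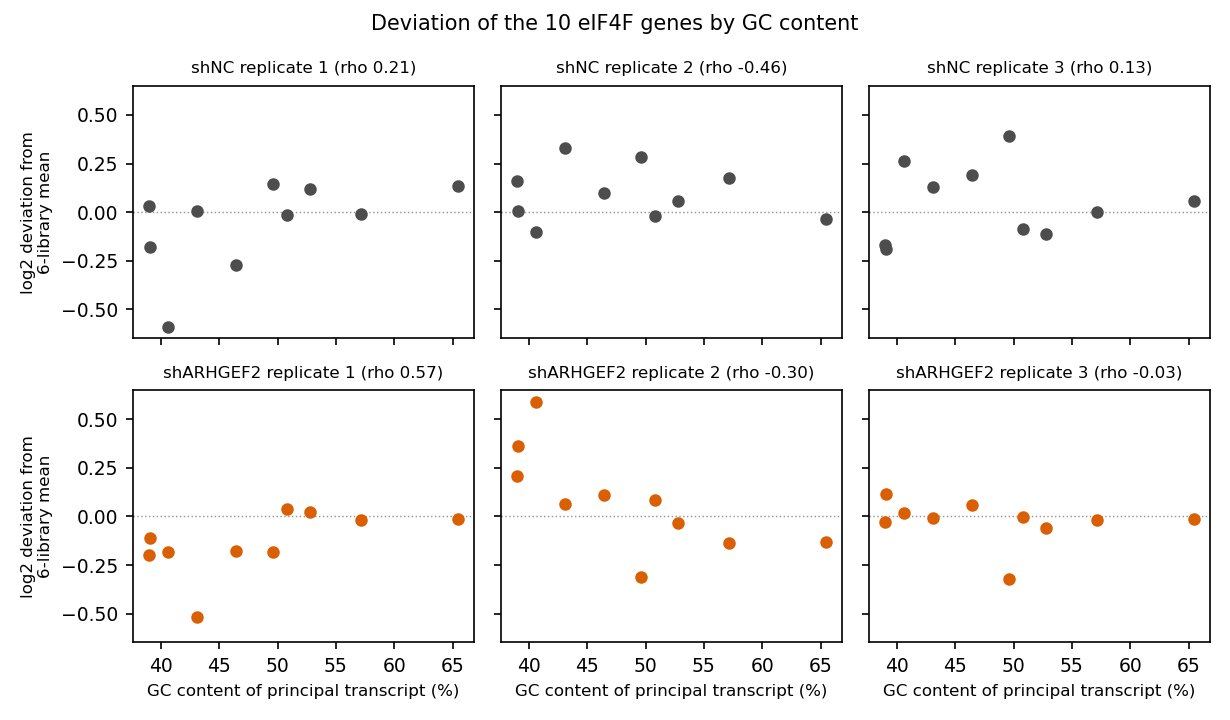
Deviation of each of the 10 genes from its mean over the 6 libraries (log2 scale) against the GC content of its principal transcript in percent, with 1 panel per library and the Spearman correlation over 12231 genes in each title. The 5 genes under 48% GC have a median deviation of -0.18 in each of the replicate 1 panels.

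Over the 6 libraries the genes whose log2 values followed EIF4A1 most closely, among 3621 genes whose mean level reached 10 FPKM, were ADM (Pearson r = 0.988), NDRG1 (0.981) and FKBP1A (0.971). The most opposed were CDC42SE1 (-0.987), SENP3-EIF4A1 (-0.982) and PMEPA1 (-0.980). ADM encodes the peptide adrenomedullin and measured 12.9, 14.01 and 13.9 FPKM in shNC and 10.3, 9.82 and 9.64 FPKM in shARHGEF2. The 6 points of each correlation form the same 2 groups as EIF4A1 itself, so the values describe likeness and no more.

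Genes around the complex were read from 6 lists, with 101 of 106 genes tested. Of these, 1 gene was called and 10 had an unadjusted p under 0.05, with 5 higher and 5 lower (9.90%, beside 13.7% of all genes tested). The gene called was DDIT4, which encodes a stress-induced inhibitor of mTORC1, the kinase upstream of EIF4EBP1. It measured 242, 248 and 213 FPKM in shNC and 154.2, 154.6 and 154.7 FPKM in shARHGEF2. All shARHGEF2 libraries lay below all shNC libraries and next to each other. The log2 difference was -0.60 ± 0.09 (adjusted p = 0.0395 in limma), and lower genes called were 0.0814% of all genes tested. The log2 difference lay between -0.66 and -0.55 in all 13 alternative settings, while the call was lost in 9 of them, with limma's adjusted p between 0.0264 and 0.271, and of the 6 fits that left out a library it held only without shNC replicate 3.

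Among the other 17 genes of eIF4F signalling, none passed the test. MTOR, the kinase itself, measured 5.63 ± 0.699 FPKM in shNC and 5.68 ± 0.396 FPKM in shARHGEF2 (SD, n = 3 each). AKT1S1, an inhibitory mTORC1 subunit, had a log2 difference of 0.21 ± 0.10 (adjusted p = 0.378 in limma), and RPS6KB2, an S6 kinase, one of -0.29 ± 0.13 (adjusted p = 0.374). The eIF4E kinase gene MKNK2 measured 25.4 ± 1.35 and 25.8 ± 1.75 FPKM.

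Of 21 further cap-complex genes, 18 were tested and 0 were called in limma, with 3 at an unadjusted p under 0.05 (2 higher, 1 lower) and a median log2 difference of 0.02. PAIP1, a partner of poly(A)-binding protein, had the largest positive difference (0.36 ± 0.14, adjusted p = 0.324 in limma) and PABPC4, a poly(A)-binding protein, the largest negative (-0.35 ± 0.11, adjusted p = 0.205). EIF4H, a cofactor of eIF4A like EIF4B, measured 127 ± 9.53 and 131 ± 7.84 FPKM. The second 4E-BP gene EIF4EBP2 stood at 6.70 ± 1.43 and 5.24 ± 0.626 FPKM, with overlap.

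The lists for the steps before and after cap recognition gave no call. All 34 genes of the 43S complex and recycling were tested, with 0 called in limma, 2 at an unadjusted p under 0.05 and a median of -0.05. EIF1, which guards start codon choice, had the largest positive difference (0.30 ± 0.10, adjusted p = 0.257 in limma) and EIF1AX the largest negative (-0.34 ± 0.18, adjusted p = 0.459). Of the 7 genes of the eIF2 kinases and phosphatases, 0 were called and 1 had an unadjusted p under 0.05. Their highest was PPP1R15B, a phosphatase subunit for eIF2, at 0.38 ± 0.17 (adjusted p = 0.379).

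Of 13 elongation and termination genes tested, 0 were called in limma and 2 had an unadjusted p under 0.05. PELO, a ribosome rescue factor, had a log2 difference of 0.31 ± 0.10 (adjusted p = 0.232 in limma) and EEF1G, an elongation factor subunit, one of -0.35 ± 0.20 (adjusted p = 0.489). The exon junction complex and nonsense-mediated decay list, to which EIF4A3 belongs by function, had 11 genes tested, 0 called and 1 at an unadjusted p under 0.05. Its lowest was CASC3, a core subunit of the junction complex, at -0.30 ± 0.11 (adjusted p = 0.3001 in limma), and its highest UPF1, the decay helicase, at 0.19 ± 0.13 (adjusted p = 0.573). The plot of log2 differences by list places the 10 genes among these.

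**Figure D5:**
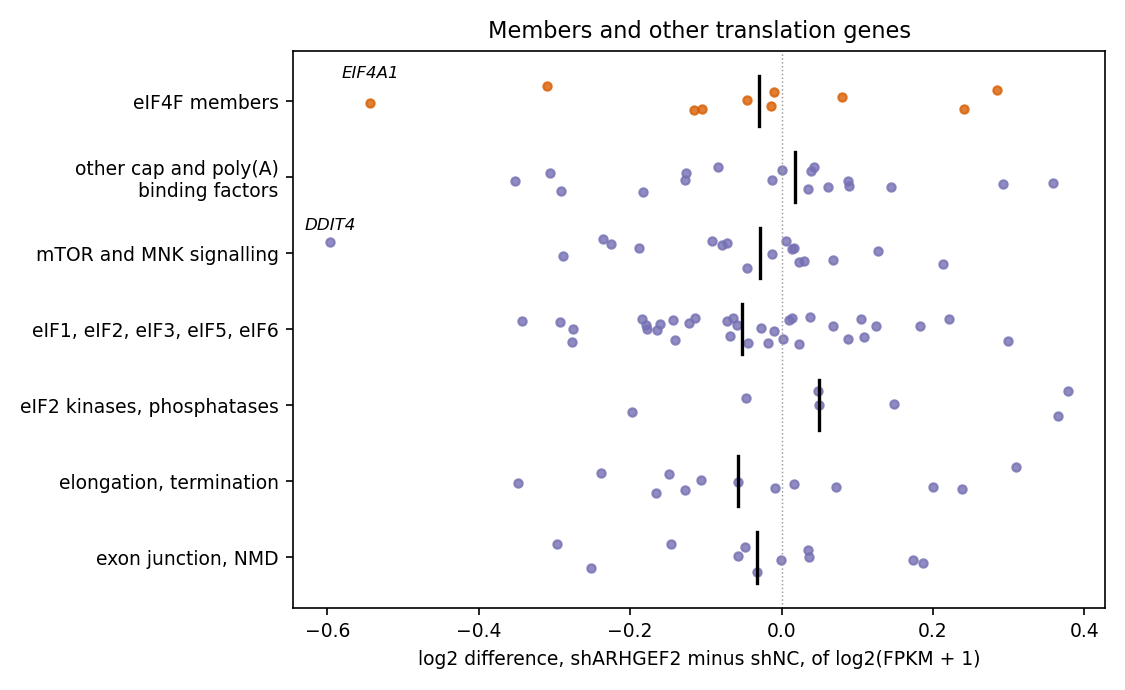
Log2 difference, shARHGEF2 minus shNC, of every tested gene of the 10 eIF4F genes and of the 6 lists, 1 point per gene. DDIT4 at -0.60 was the 1 gene called in the lists, and EIF4A1 at -0.54 is the lowest of the 10 eIF4F genes.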

How the data were processed

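RNA of 6 libraries (3 shNC, 3 shARHGEF2) was selected by poly(A), prepared with a dUTP strand-marking protocol and adapters with molecular identifiers, and sequenced in pairs. The authors deposited 1 table of FPKM values per gene, normalized to length and mapped fragments. The submitters' processing notes name cutadapt 1.9, HISAT2 2.0.4, UMI-tools, StringTie 1.3.4d, DESeq2, edgeR and hg19, with no role or order. The table's own comparison columns (ratio, its log2, p, adjusted p, call) were not used, and read counts were not analysed here.

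Genes that averaged 0.5 FPKM or more over the 6 libraries were tested with limma 3.58.1 in R 4.3.3 (statmod 1.5.0) on log2(FPKM + 1), with trended and robust variances and Benjamini-Hochberg adjustment, and called at an adjusted p under 0.05. The method was tested on simulated data. Small changes set there were not called, so a gene or list without a call is not shown to be unchanged. Groups came from the sample titles. The members and lists were chosen with earlier results of these data known. Genes named were the 10 members, ARHGEF2, the genes of the EIF4A1 locus, processed copies of members, every called gene of a list or otherwise the 2 highest and 2 lowest (not all are printed), and the 3 genes most and least like EIF4A1. MTOR, MKNK2, EIF4H and EIF4EBP2 were named for their roles after their values were seen, as were the markers given singly. Depth was estimated from the spacing of FPKM times length in genes with 1 transcript of at least 600 nt. At that depth 40.9% to 42.1% of low values came within 0.1 of a whole number of pairs, beside 20% by chance, so counts were not recovered and no interval was computed. Residuals of same-numbered libraries correlated at 0.18, 0.16 and -0.10. Of the 3 shNC libraries, 2 correlated best with the shARHGEF2 library of their own number, which leaves their pairing unsettled. Alternatives were a pseudocount of 0.1, no filter, a filter of 1 FPKM in 3 libraries, quantile and upper quartile scaling, no trend or robust variances, a replicate block and leaving out each library. Python 3.11.15, pandas 2.3.3, numpy 2.4.6, SciPy 1.17.1 and matplotlib 3.10.9 were used.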

Additional observations from a re-analysis of the deposited data

How the results depend on the processing

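The limma fit called 34 genes (24 higher, 10 lower), of which 1 (DDIT4) was in the 6 translation lists. Without a filter 1 gene was called, with at least 1 FPKM in 3 or more libraries 54, with quantile normalization 19, without trend or robust variances 7 and with a replicate block 0 (1976 at an unadjusted p under 0.05). In the lists, 0 genes were called without a filter, with quantile normalization, without trend or robust variances and with the replicate block. Leaving out 1 library gave 6 (without shARHGEF2 replicate 3) to 102 genes called (without shNC replicate 3), and 0 to 1 in the lists. The cause of these moves was not tested. The labels link same-numbered libraries by number alone, although those of replicates 1 and 2 also shared the sign of their GC trend. Whether they are paired is not known, so a call lost under the block is not read as a weaker effect. None of the 10 eIF4F genes was called in limma under any of the 13 settings. EIF4A1 kept its sign in all 13, from -0.61 to -0.48. The 10 genes were chosen with this contrast known, so neither their calls nor their signs are read as a test. EIF4B turned positive without shNC replicate 2 or 3 or shARHGEF2 replicate 1 (at most 0.08), EIF4E without shNC replicate 2 or shARHGEF2 replicate 1 (at most 0.08), and EIF4E2 without shNC replicate 1 (0.0023). EIF4E failed the filter of 1 FPKM and was fitted in 12 settings. ARHGEF2 itself was called in 11 of 13 settings, and not without a filter or with the block (highest adjusted p = 0.0716 in limma). The readthrough gene's log2 difference was 3.73 with a pseudocount of 0.1. With 3 libraries a group and no counts, the precision of single low genes such as EIF4E and PDCD4 is limited.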
